A study of Rattus norvegicus with 24 samples.

Results

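The serpins are a gene family of the rat measured here across 2 tissues of animals that breathed formaldehyde. The family was taken as every probe set whose only gene symbol began with Serpin, which gave 36 genes with 1 probe set each, out of 14506 genes with a probe set of 1 symbol. The family was selected on measured values, because Serpinb11 and Serpinb10 had moved in opposite directions in nose and blood after 28 days of exposure, so all effects of exposure at 28 days are given below as a description, without a p-value. Counts of serpins past the threshold for those effects are a description too. A further 2 probe sets carried a serpin symbol together with other symbols and were not counted as members. Male Fischer rats, approximately 8 weeks old when the study began, were exposed in nose-only tubes to 2 ppm formaldehyde, vaporised from isotope-labelled paraformaldehyde, 6 hours daily during 7 or 28 days. Control rats, also male Fischer rats of that age, sat in the same tubes in room air for the same number of days. Messenger RNA was measured on 24 Affymetrix arrays, 3 for each of 8 groups, which were exposed nose at 7 days, control nose at 7 days, exposed nose at 28 days, control nose at 28 days, and the same 4 groups of white blood cells. The nasal samples were tissue of the maxilloturbinate, and the white blood cells were isolated from heparinised blood in cell preparation tubes. Nothing in the labels says that the 3 arrays of a group came from separate animals, so a p-value here reflects the spread between these samples alone, which may be technical.

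Serpins are proteins that share one fold, and most of them are suicide inhibitors of proteases. The protease cuts an exposed loop of the serpin, the loop swings into the body of the serpin, and the protease stays trapped and distorted. Clade A serpins are mostly secreted and include the elastase inhibitor of plasma, clade B serpins mostly stay inside the cell and protect it from its own or incoming proteases, and several serpins of the other clades act on clotting, plasminogen and complement. A few have lost inhibition and work as a hormone carrier or as a chaperone. Of the 36 genes, 13 belonged to clade A, 14 to clade B and 9 to clades C to I. Of the 49 protein-coding serpin genes of the RefSeq annotation of GRCr8, 11 lie on chromosome 13, 9 on chromosome 17 and 18 on chromosome 6, and the array gave 10, 5 and 12 of these as members.

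Levels are log2 of the deposited normalised intensity, and a difference is the exposed minus the control mean on that scale with its standard error from limma, a linear model that pools the spread over probe sets. Genes were tested where their mean reached percentile 25 of all probe sets of the tissue, a log2 level of 6.61 in nose and 5.96 in blood. In each tissue 21 serpins passed that filter, 17 of them in both. Serpina3l, Serpinb5, Serpinb7 and Serpinf1 passed only in nose, and Serpina10, Serpina3c, Serpinb2 and Serpind1 only in blood. The other 11, Serpina16, Serpina3m, Serpina4, Serpina5, Serpina7, Serpina9, Serpinb12, Serpinb13, Serpinb3, Serpinb9d and Serpini2, passed in neither tissue. The scale of the arrays differed between the days, with array medians of 305 to 312 against 163 to 172 in intensity in nose and 175 to 181 against 113 to 119 in blood, so levels are not compared between days. The tissue labels matched their markers, since the summed intensity of 4 epithelial genes was 6095 to 14496 on nose arrays and 256 to 439 on blood arrays, and that of 5 leukocyte genes 2205 to 5686 on nose arrays and 13614 to 27557 on blood arrays. Nose arrays also held markers of olfactory epithelium, and 1 control array at 28 days (replicate 1) stood apart, with a summed intensity of 9111 over 11 olfactory genes against 28028 to 30023 on the other 2 control arrays. In such bulk tissue, fewer cells of a type and less RNA per cell cannot be told apart.

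In animals that breathed room air, most serpins were higher in nose than in white blood cells on the deposited scale, though not after median centring on either day, and 3 of the 4 that were lower belonged to clade B. Of the 17 serpins measured in both tissues, 11 were higher and 4 lower in nose than in blood at 7 days, and 11 were higher and 4 lower at 28 days (limma adjusted p under 0.05). Over all 20096 probe sets tested the share called was 74.7% at 7 days (58.7% higher and 16% lower) and 71.3% at 28 days (45.4% higher and 25.8% lower), so a tissue difference was the usual finding. The split depended on the scale, since centring each array on its median gave 7 higher and 8 lower at 7 days, and 8 higher and 6 lower at 28 days. It also moved the median difference of all probe sets to −0.41 from 0.41 at 7 days and to −0.33 from 0.20 at 28 days.

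Among the 17 serpins measured in both tissues, secreted serpins and the collagen chaperone led the nasal side. Serpina3n, a rodent relative of antichymotrypsin, differed by 5.23 ± 0.36 between nose and blood at 7 days (limma adjusted p = 2.08e-11) and by 5.22 ± 0.36 at 28 days (adjusted p = 3.26e-11). Serping1, the C1 inhibitor that blocks the first proteases of complement and plasma kallikrein, differed by 4.42 ± 0.14 at 7 days (adjusted p = 5.86e-17) and by 4.22 ± 0.14 at 28 days (adjusted p = 1.76e-16). Serpinh1, a chaperone of the endoplasmic reticulum that binds folded collagen, differed by 3.95 ± 0.12 and 3.40 ± 0.12 on those days, and Serpine2, a thrombin inhibitor of tissues, by 2.67 ± 0.39 and 2.79 ± 0.39. All 4 differences exceeded the spread between replicates on both days. Clade B stood on both sides, with 3 of the 7 tested higher and 3 lower in nose on each day. Serpinb5 and Serpinb7, also of clade B, were under the filter in blood and not tested. Their control means were 9.29 and 8.67 in nose at 7 days, against 4.65 and 3.98 in blood. At 28 days these means were 8.37 and 7.21 in nose, against 4.64 and 3.52 in blood.

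On the blood side stood 3 clade B genes of one cluster on chromosome 17, and Serpinf2. Serpinb6b, whose mouse product inhibits granzyme A, was lower in nose than in blood, with a difference of −2.36 ± 0.13 at 7 days (limma adjusted p = 5.51e-13) and of −1.96 ± 0.13 at 28 days (adjusted p = 1.93e-11). For Serpinb6a, an intracellular inhibitor of cathepsin G, the difference was −1.46 ± 0.15 at 7 days and −1.53 ± 0.15 at 28 days. Serpinb9, the inhibitor of granzyme B that protects cytotoxic lymphocytes from their own enzyme, had −0.90 ± 0.12 and −0.96 ± 0.12, and Serpinf2, the plasma inhibitor of plasmin, −0.39 ± 0.10 and −0.43 ± 0.10. Serpinb6a, Serpinb6b, Serpinb9 and Serpinb1a have close copies in the rat genome, as do the Serpina3 genes, and the probe sets of such genes may share signal.

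**Figure D1:**
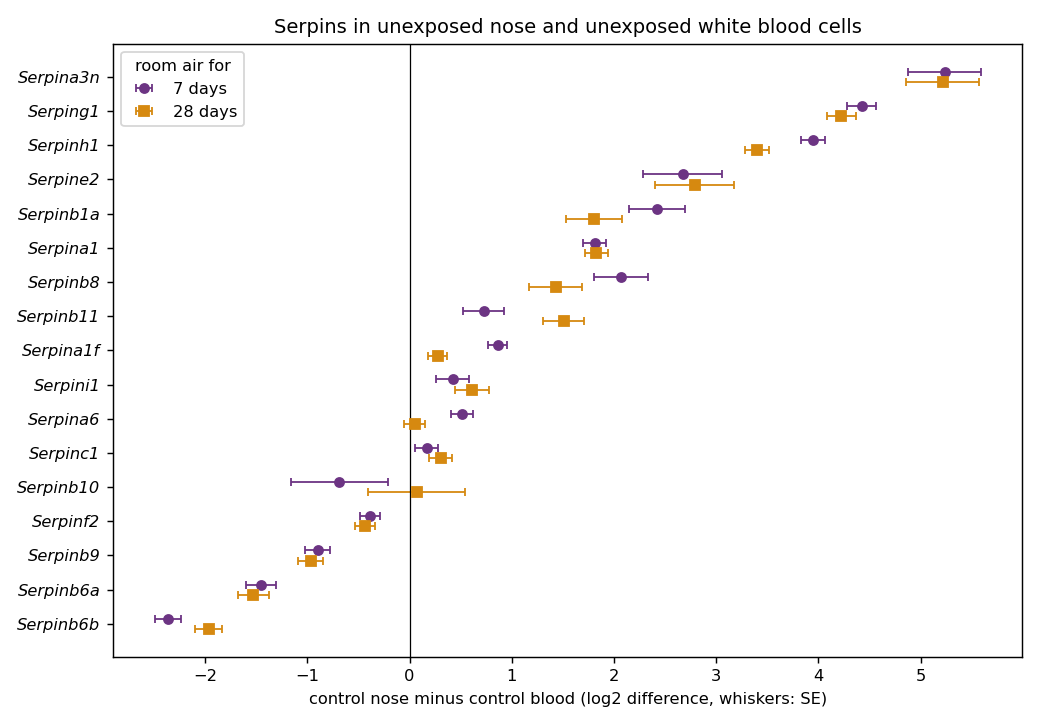
Differences between control nose and control white blood cells for the 17 serpins measured in both tissues. The horizontal axis is the log2 difference with its standard error and the colours mark the days. Serpina3n lay farthest to the right at 5.23 and 5.22, and Serpinb6b farthest to the left at −2.36 and −1.96.

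Serpinb11 and Serpinb10, the genes behind the choice of the family, sit in one run of serpin genes on chromosome 13. By the RefSeq gene order of GRCr8 the run is Serpinb5, Serpinb12, Serpinb13, then other genes, Serpinb3, Serpinb11, Serpinb7, Serpinb2, Serpinb10 and Serpinb8. Serpinb11 encodes a protein that lacks inhibition in human, whereas the mouse protein inhibits trypsin-like proteases. Serpinb10, also called bomapin, is a nuclear and cytoplasmic serpin of blood-forming cells. Serpinb2 is the plasminogen activator inhibitor of the intracellular type, made by activated monocytes and by stratifying epithelium.

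The windows from 250 bases before to 50 bases after the RefSeq start (GRCr8) are printed for 3 genes of that run, which stood higher together in exposed blood at 28 days, and for Serpinb9, which differed in both tissues. They are read 5′ to 3′ on the gene's strand, and capitals mark matches to the motifs searched. Serpinb11 spans chr13:23840576-23840875 on the plus strand, Serpinb2 chr13:24055771-24056070 on the plus strand, Serpinb10 chr13:24067803-24068102 on the plus strand and Serpinb9 chr17:31640767-31641066 on the minus strand.
Serpinb11: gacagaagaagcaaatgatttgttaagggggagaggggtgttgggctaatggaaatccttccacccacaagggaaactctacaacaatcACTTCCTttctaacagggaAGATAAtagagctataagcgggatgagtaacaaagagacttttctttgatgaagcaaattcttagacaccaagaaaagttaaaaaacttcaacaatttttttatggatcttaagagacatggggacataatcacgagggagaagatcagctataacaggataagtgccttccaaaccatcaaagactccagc
Serpinb2: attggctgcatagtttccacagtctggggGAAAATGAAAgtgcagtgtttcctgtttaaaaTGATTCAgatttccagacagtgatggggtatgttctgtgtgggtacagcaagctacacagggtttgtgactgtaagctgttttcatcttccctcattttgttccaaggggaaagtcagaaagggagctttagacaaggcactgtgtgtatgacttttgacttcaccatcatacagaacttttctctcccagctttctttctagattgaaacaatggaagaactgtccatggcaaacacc
Serpinb10: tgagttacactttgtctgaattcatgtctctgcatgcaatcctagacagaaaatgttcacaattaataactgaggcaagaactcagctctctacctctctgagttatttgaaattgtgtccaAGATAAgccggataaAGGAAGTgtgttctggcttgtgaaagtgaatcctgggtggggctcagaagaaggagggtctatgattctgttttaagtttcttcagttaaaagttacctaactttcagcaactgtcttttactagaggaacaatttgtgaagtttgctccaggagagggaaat
Serpinb9: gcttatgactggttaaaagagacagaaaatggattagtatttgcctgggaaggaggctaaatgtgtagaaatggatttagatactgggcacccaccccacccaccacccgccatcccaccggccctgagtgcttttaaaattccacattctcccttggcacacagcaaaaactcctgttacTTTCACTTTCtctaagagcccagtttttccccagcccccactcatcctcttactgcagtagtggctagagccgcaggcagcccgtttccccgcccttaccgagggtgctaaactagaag

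The motifs were TATAAA on the gene strand, and on both strands TGANTCA (the AP-1 element), AGGAAGT (a form of the ETS element), AGATAA (the GATA element) and an interferon response element (GAAA and GAAA parted by any pair of letters). Among all 33469 windows of the RefSeq table, 8.8% held TATAAA, 7.33% TGANTCA, 8.41% AGGAAGT, 11.6% AGATAA and 3.92% the interferon response element. Windows were found for 29 of the 36 serpins, 30 windows in all, of which 4, 4, 7, 6 and 2 held these motifs in that order. Serpinb10 and Serpinb11 each held both an ETS and a GATA match, Serpinb2 held an AP-1 match and an interferon response match, and Serpinb9 held an interferon response match at position −69 from its start. The windows of Serpinb11 and Serpinb2 lie within the span of the gene, at the start of the transcript listed there. A match describes these letters only.

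Serpinb11 stood on opposite sides of its controls in the 2 tissues. Its levels in nose at 28 days were 10.19, 10.20 and 9.99 on exposed arrays, against 10.44, 10.74 and 11.10 on control arrays. In blood at 28 days they were 10.55, 11.17 and 10.48 on exposed arrays, against 9.39, 9.18 and 9.17 on control arrays. In nose every exposed array thus lay under every control array, and in blood every exposed array lay over every control array. The differences were −0.63 ± 0.21 in nose and 1.48 ± 0.18 in blood, the largest difference of any serpin tested in blood at that day. After 7 days the groups overlapped in both tissues, with 10.70, 11.40 and 11.27 in exposed nose, against 11.52, 11.08 and 11.48 in control nose. In blood at 7 days Serpinb11 had 10.98, 10.61 and 10.70 on exposed arrays, against 10.62, 10.87 and 10.41 on control arrays. The 7 day differences, −0.24 ± 0.21 in nose (limma adjusted p = 0.502) and 0.13 ± 0.18 in blood (adjusted p = 0.794), did not pass the test.

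Serpinb10 followed the same order at 28 days with a far wider spread in nose. Exposed nose had 6.61, 5.62 and 6.77 at 28 days, against 9.27, 7.31 and 8.10 in control nose, a difference of −1.90 ± 0.62. Control replicate 1, the highest of these, is the array that stood apart, and without it the difference was −1.37. Blood at 28 days held 8.88, 9.51 and 8.65 on exposed arrays, against 7.99, 8.40 and 8.09 on control arrays, a difference of 0.86 ± 0.18. Here again no exposed array overlapped the control arrays in either tissue. In nose at 7 days Serpinb10 stood at 5.84, 7.67 and 8.42 on exposed arrays, against 8.88, 8.71 and 8.98 on control arrays, and its difference of −1.55 ± 0.62 missed the threshold (limma adjusted p = 0.118). In blood at 7 days it stood at 9.67, 9.55 and 9.52 on exposed arrays, against 9.64, 9.61 and 9.38 on control arrays, a difference of 0.03 ± 0.18 (adjusted p = 0.959).

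Serpinb2, which lies between Serpinb7 and Serpinb10, passed the filter in blood alone. In blood at 28 days it had 7.34, 7.86 and 7.38 on exposed arrays, against 6.50, 6.31 and 6.42 on control arrays, a difference of 1.11 ± 0.14. Its nasal levels at 28 days, 5.33, 5.15 and 5.69 on exposed arrays against 8.45, 6.47 and 6.89 on control arrays, straddled the level of the filter and were not tested. Serpinb2, Serpinb10 and Serpinb11 were thus each lower on all exposed nose arrays and higher on all exposed blood arrays at 28 days. In blood at 7 days the groups overlapped for Serpinb2, with 7.79, 7.42 and 7.69 on exposed arrays, against 7.57, 7.79 and 7.48 on control arrays.

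**Figure D2:**
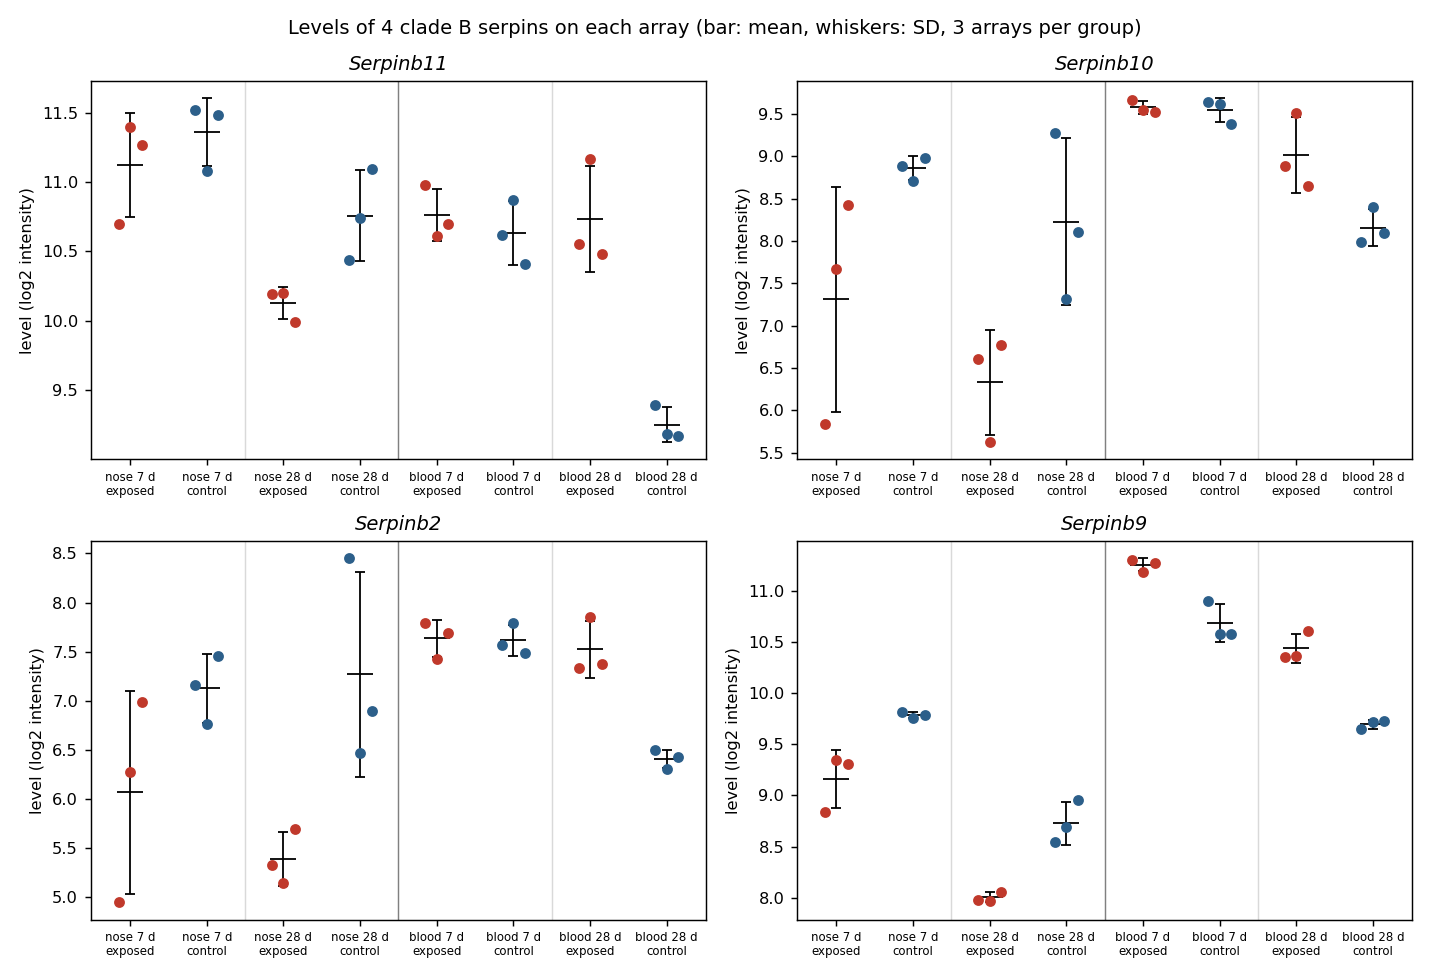
Log2 level of Serpinb11, Serpinb10, Serpinb2 and Serpinb9 on each array in the 8 groups, with exposed groups in red to the left of their controls in blue, the mean as a bar and the SD of 3 arrays as whiskers. At 28 days the exposed arrays lie under the control arrays in nose and over them in blood for all 4 genes.

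After 7 days of exposure 5 of 9 clade B serpins, most of them intracellular protease inhibitors, fell in nose, and Serpina1 rose. Of the 21 serpins tested in nose at 7 days, 6 fell, 1 rose and 14 did not pass, against 16.3% of all probe sets called, 7.84% lower and 8.43% higher. Their median difference was −0.23, against −0.05 over all probe sets tested. All 9 clade B serpins tested had a difference under 0, 5 of them past the threshold, with a median of −0.62. Of the 5 clade A serpins tested 1 rose, and of the 7 of clades C to I 1 fell.

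The clade B genes that fell are known from epithelium as well as from leukocytes. Serpinb9 had 8.84, 9.34 and 9.31 on exposed arrays, against 9.82, 9.76 and 9.78 on control arrays, and was 1.54-fold lower, a difference of −0.62 ± 0.14 (limma adjusted p = 0.0154). Serpinb6b had 7.97, 8.34 and 8.16 on exposed arrays, against 8.96, 8.65 and 8.66 on control arrays, a difference of −0.60 ± 0.13 (adjusted p = 0.0154). Serpinb1a, the intracellular inhibitor of neutrophil elastase and cathepsin G, had 10.64, 11.44 and 11.42 on exposed arrays, against 11.87, 11.84 and 11.87 on control arrays, a difference of −0.69 ± 0.20 (adjusted p = 0.0368). In all 3 the exposed arrays lay under the control arrays without overlap.

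Serpinb5, or maspin, a serpin of basal and squamous epithelium without protease inhibition, was 2.25-fold lower. It had 7.15, 8.54 and 8.68 on exposed arrays, against 9.48, 9.23 and 9.18 on control arrays, a difference of −1.17 ± 0.35 (limma adjusted p = 0.0433). Serpinb8, whose human product inhibits the processing protease furin, had 6.78, 7.80 and 8.03 on exposed arrays, against 8.59, 8.51 and 8.56 on control arrays, a difference of −1.01 ± 0.31 (adjusted p = 0.0493). Serpinb6a, Serpinb7, Serpinb10 and Serpinb11 had differences of −0.35, −0.36, −1.55 and −0.24 and did not pass.

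Among the secreted serpins Serping1 fell and Serpina1 rose. Serping1 had 10.44, 10.52 and 10.55 on exposed nose arrays at 7 days, against 10.88, 10.86 and 11.03 on control arrays, a difference of −0.42 ± 0.09 (limma adjusted p = 0.0136). Serpina1, alpha-1-antitrypsin, the main plasma inhibitor of neutrophil elastase, had 8.99, 8.81 and 8.69 on exposed arrays, against 8.51, 8.15 and 8.08 on control arrays, a rise of 0.58 ± 0.13 (adjusted p = 0.0159). Serpine2 showed the largest positive difference, 1.30 ± 0.49, with 11.80, 11.34 and 11.42 on exposed arrays against 9.42, 10.72 and 10.51 on control arrays, but missed the threshold (adjusted p = 0.0959). Serpinf1, a serpin without inhibition that restrains vessel growth, had −0.23 ± 0.11 (adjusted p = 0.184), and Serpinh1 −0.05 ± 0.11 (adjusted p = 0.804).

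The exposed nose arrays at 7 days lay under all control arrays for 9 of the 21 serpins and over them for 3, against 32.4% and 20.8% of all probe sets. Exposed replicate 1 was the lowest array for all 9, and without it 0 of the 21 serpins passed, with differences of −0.46 for Serpinb9 (limma adjusted p = 0.0518), −0.68 for Serpinb5 (adjusted p = 0.107), −0.64 for Serpinb8 (adjusted p = 0.184), −0.43 for Serpinb1a (adjusted p = 0.102) and 0.50 for Serpina1 (adjusted p = 0.0787). Serping1 and Serpinb6b had −0.39 (limma adjusted p = 0.0655) and −0.51 (adjusted p = 0.0759) without that array, against −0.42 and −0.60 with it. Without control replicate 1, 2 or 3 the count was 2, 4 or 2, and without exposed replicate 2 or 3 it was 6 or 7.

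Markers of cell types moved in the same nasal arrays. Of 11 squamous and basal markers tested 2 fell (all 11 differences under 0), of 5 leukocyte markers 4 fell, of 8 monocyte markers 6 fell, of 7 endothelial markers 7 fell, and of 11 olfactory markers 4 rose. Over all probe sets 7.84% were called lower and 8.43% higher. Other lists moved less, with 0 of 4 epithelial and 0 of 8 bone and cartilage markers called, and 1 of 7 mucous and secretory markers lower. The summed intensity of the squamous and basal markers was 4525 to 10753 on exposed arrays, against 11617 to 13289 on control arrays, and exposed replicate 1, the lowest array for the serpins, was also the lowest there. The summed intensity of the olfactory markers was 62915 to 72907 on exposed arrays, against 22597 to 43006 on control arrays. The part of these markers in the serpin differences was not tested.

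**Figure D3:**
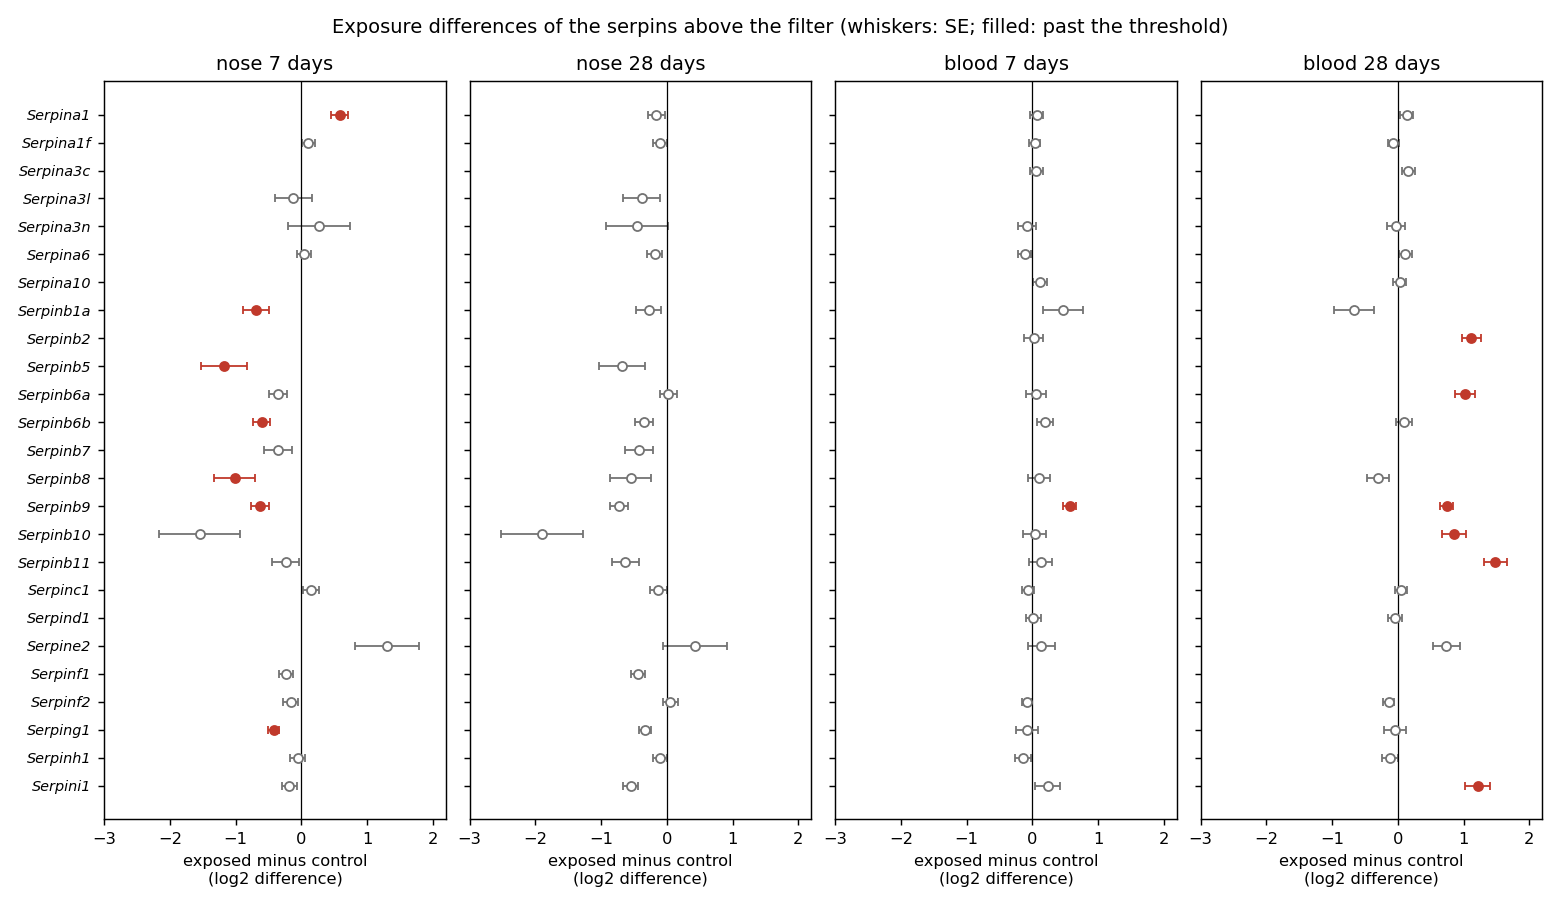
Exposure difference of each serpin above the filter in the 4 comparisons of tissue and day, exposed minus control on the log2 scale, with its standard error. Filled red points passed a limma adjusted p under 0.05. In nose the clade B genes lie left of 0 at 7 days, and in blood at 28 days the filled points lie right of 0, up to 1.48 for Serpinb11.

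In nose at 28 days no serpin passed, and most exposed means lay under the control means. Of 21 serpins 0 passed, against 0.00456% of all probe sets (limma, 1 of 21910, with 3385 at an unadjusted p under 0.05). The median difference was −0.35, and 18 of 21 lay under 0. For 9 serpins all exposed arrays lay under all control arrays, against 8.7% of all probe sets, and for 0 they lay over them, against 7.48%. The 9 include Serpinb11 and Serpinb10, whose values in this contrast helped choose the family, so these counts are a description and nothing is read from them.

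Serpinb9 had 7.98, 7.97 and 8.06 on exposed nose arrays at 28 days, against 8.54, 8.69 and 8.96 on control arrays, a difference of −0.73 ± 0.14. Serpini1, neuroserpin, an inhibitor of tissue plasminogen activator in neurons, had 8.04, 7.93 and 8.05 on exposed arrays, against 8.52, 8.43 and 8.72 on control arrays, a difference of −0.55 ± 0.11. Serpinf1 had 9.48, 9.54 and 9.51 on exposed arrays, against 9.85, 9.85 and 10.14 on control arrays, a difference of −0.44 ± 0.11. In these 3 genes the exposed arrays lay closer together than the control arrays. Without control replicate 1 the 3 differences were −0.82, −0.57 and −0.49, and 4 serpins passed. On that array the squamous and basal markers summed to 9810, against 5017 and 5451 on control replicates 2 and 3, and exposed arrays gave 4435 to 5620.

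No serpin passed the test of a nasal effect that differed between 28 and 7 days (limma, 0 of 21, against 0.1% of all probe sets and 2977 probe sets at an unadjusted p under 0.05). Without control replicate 1 at 28 days 3 passed. The difference between the effects was −0.75 ± 0.18 for Serpina1, −0.37 ± 0.15 for Serpini1 and 0.38 ± 0.19 for Serpinb6a. For Serpinb11 it was −0.39 ± 0.29 and for Serpinb10 −0.35 ± 0.88.

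In white blood cells at 7 days a single serpin rose, Serpinb9. It had 11.30, 11.18 and 11.27 on exposed arrays, against 10.90, 10.58 and 10.57 on control arrays, a 1.48-fold rise with a difference of 0.57 ± 0.10 (limma adjusted p = 0.0414). It was 1 of 21 serpins tested, against 0.475% of all probe sets called and 0.11% called higher. The next serpins by p, Serpinb6b at 0.19 ± 0.12 (adjusted p = 0.493) and Serpinb1a at 0.46 ± 0.30 (adjusted p = 0.515), did not pass. All 8 clade B serpins tested lay above 0 on the deposited scale, and their median difference was 0.12, against 0.04 over all probe sets. After median centring, however, Serpinb2 stood at 0.146 in exposed and 0.158 in control blood. With quantile normalisation the difference of Serpinb10 was −0.00446. All exposed arrays lay over all control arrays for 2 of the 21, Serpinb9 and Serpinb6b, and under them for 0, against 19.5% and 10.4% of all probe sets. The call of Serpinb9 was lost without control replicate 2 or 3 or any 1 of the exposed arrays, with differences of 0.51 to 0.68 when any 1 array was left out.

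Genes of granzymes, the cytotoxic proteases that Serpinb9 and, in mouse, Serpinb6b inhibit, were higher in the same blood samples. Of 7 tested genes of the list of mast cell and cytotoxic proteases 3 rose at 7 days, against 0.11% of all probe sets called higher. Gzmb, the protease that Serpinb9 inhibits, had 11.82, 11.73 and 11.98 on exposed arrays, against 11.10, 11.03 and 11.29 on control arrays, a difference of 0.70 ± 0.13 (limma adjusted p = 0.0465). Gzma had 11.96, 11.90 and 11.96 on exposed arrays, against 11.17, 10.74 and 11.20 on control arrays, a difference of 0.91 ± 0.16 (adjusted p = 0.0374). For Gzmk the difference was 0.97 ± 0.15 (adjusted p = 0.0313). In all 3 the exposed arrays lay over the control arrays. The summed intensity of 11 T and NK cell markers was 39385 to 43179 on exposed arrays, against 30548 to 36503 on control arrays, with 1 of 11 (Gzmb itself) past the threshold, and its part in the rise of Serpinb9 was not tested.

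At 28 days the granzymes were again higher in exposed blood, by 0.81 ± 0.13 for Gzmb, 0.89 ± 0.16 for Gzma, 0.91 ± 0.15 for Gzmk and 0.52 ± 0.14 for Gzmm, 4 of the 7 tested, against 3.95% of all probe sets called higher. Serpinb9 then had 10.35, 10.36 and 10.60 on exposed arrays, against 9.64, 9.71 and 9.73 on control arrays, a difference of 0.74 ± 0.10. Its groups did not overlap on either day.

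**Figure D4:**
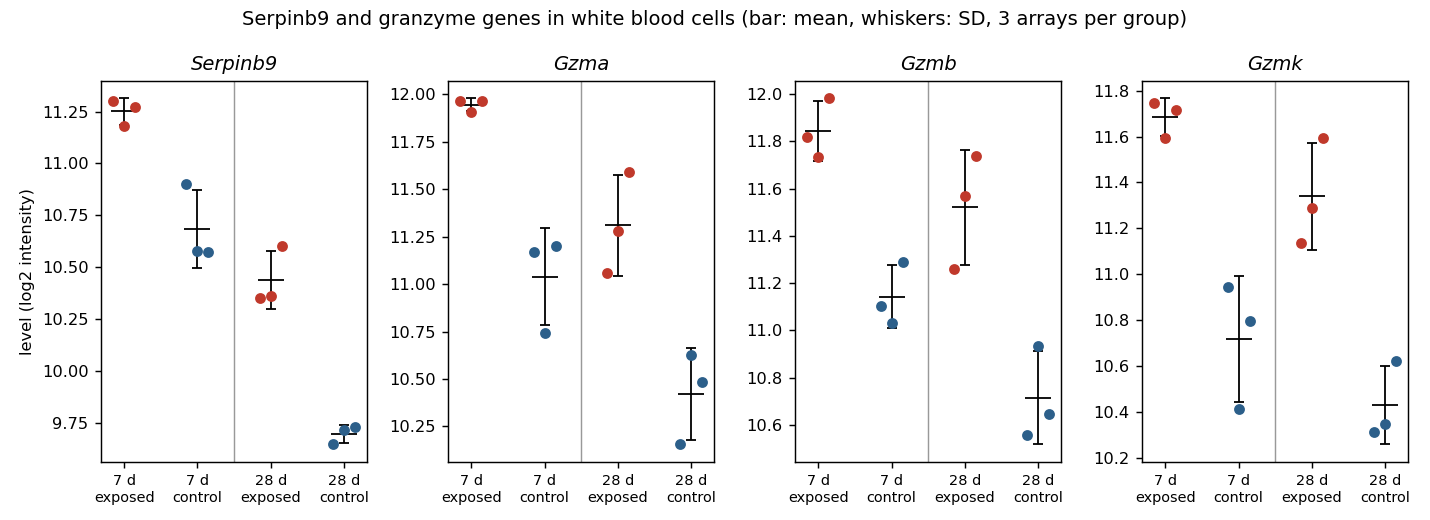
Log2 level of Serpinb9 and of the granzyme genes Gzma, Gzmb and Gzmk on each array of white blood cells, exposed in red and control in blue, with the mean as a bar and the SD of 3 arrays as whiskers. On both days the exposed arrays of each gene lie over the control arrays of that day.

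In white blood cells at 28 days the serpins past the threshold were all higher in exposed animals. They were 6 of the 21 tested, Serpinb11, Serpinb2, Serpinb9, Serpinb6a, Serpini1 and Serpinb10, with 0 lower, against 5.27% of all probe sets called, 3.95% higher and 1.31% lower, and 5 of the 6 belong to clade B. This is the contrast behind the choice of the family, so the count is a description. In a fit of only the 6 arrays compared 0 serpins passed, and 1 probe set of all tested did, so the calls draw on the spread estimated over all 12 blood arrays.

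Serpinb6a had 10.82, 11.40 and 10.91 on exposed blood arrays at 28 days, against 10.18, 9.78 and 10.10 on control arrays, a difference of 1.02 ± 0.15. Serpini1 had 8.88, 9.70 and 8.89 on exposed arrays, against 8.05, 7.76 and 8.02 on control arrays, a difference of 1.22 ± 0.19. Both were thus higher on every exposed array, by 2.03-fold and 2.32-fold on average. Serpine2 was also higher on every exposed array, with 7.57, 8.33 and 7.40 against 7.31, 6.82 and 6.96 on control arrays, a difference of 0.73 ± 0.21 that did not pass. Serpini2, under the filter, had 5.84, 6.63 and 6.04 on exposed arrays, against 5.26, 4.82 and 5.08 on control arrays. The chromosome 17 neighbours of Serpinb9 had differences of 0.10 ± 0.12 (Serpinb6b) and −0.67 ± 0.30 (Serpinb1a) that did not pass, and their exposed arrays overlapped the control arrays.

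For 7 serpins all exposed blood arrays at 28 days lay over all control arrays, against 8.77% of all probe sets, and for 0 they lay under them, against 9.03%. The 7 include Serpinb11 and Serpinb10, so this count and the fits without an array are a description as well. Exposed replicate 2 was the highest array for 6 of them, Serpinb9 being the exception. Without it the differences were 1.26 for Serpinb11, 0.95 for Serpinb2, 0.84 for Serpinb6a, 0.95 for Serpini1 and 0.61 for Serpinb10, and 6 serpins passed. Blood cell markers moved on the same arrays, where 3.95% of all probe sets were called higher and 1.31% lower. Of 6 platelet markers 3 were called higher (Ppbp, Gp9 and Gp1ba), with a summed intensity of 32459 to 38111 on exposed arrays, against 23356 to 28151 on control arrays, and exposed replicate 2 was the highest. Of 11 T and NK cell markers 4 were called higher (Gzmb, Prf1, Nkg7 and Ncr1). Another 5 of the 11 lay under 0, and the list had a median difference of 0.04. Of 8 monocyte markers 1 was called lower (Cd68), and all 8 lay under 0, with a median difference of −0.70 (limma, 7 at an unadjusted p under 0.05). The 11 neutrophil markers gave 0 calls (limma, 6 at an unadjusted p under 0.05), with a summed intensity of 2000 to 4053 on exposed arrays, against 5056 to 16469 on control arrays. The part of these cell types in the serpin differences was not tested.

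**Figure D5:**
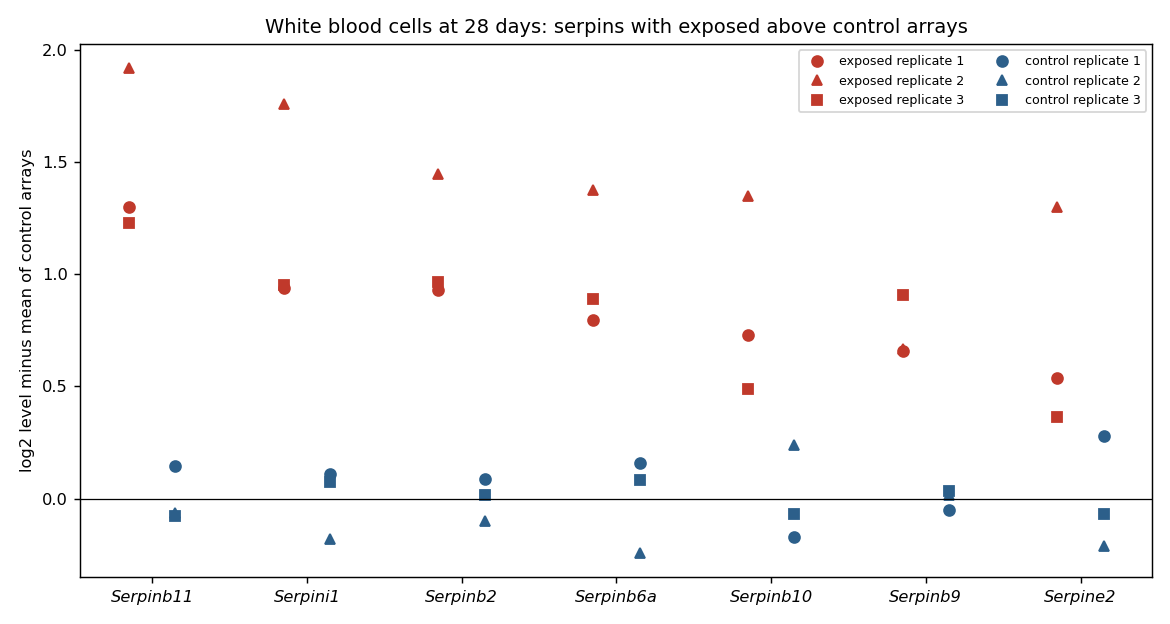
Level of 7 serpins in white blood cells at 28 days on each array, as the log2 level minus the mean of the control arrays, with exposed arrays in red to the left of control arrays in blue and a symbol for each replicate. Exposed replicate 2 (triangle) is the highest array for 6 of the 7 genes, and all exposed arrays lie over all control arrays.

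The blood effect was also compared between the days. Of 21 serpins 0 passed for an effect at 28 days that differed from that at 7 days (limma, against 0% of all probe sets, with 2528 probe sets at an unadjusted p under 0.05). The differences between the effects were 1.35 ± 0.25 for Serpinb11, 1.09 ± 0.20 for Serpinb2, 0.97 ± 0.21 for Serpinb6a, 0.82 ± 0.26 for Serpinb10 and 0.18 ± 0.15 for Serpinb9.

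The effect of exposure was then compared between the tissues. At 7 days, of the 17 serpins tested in both, 3 had a nasal effect that differed from the blood effect, 1 higher and 2 lower, against 10.8% of all probe sets, 5.1% higher and 5.65% lower. For Serpinb9 the difference of the effects, nose minus blood, was −1.19 ± 0.17 (limma adjusted p = 0.000905), for Serpinb6b −0.79 ± 0.18 (adjusted p = 0.00992) and for Serpina1 0.52 ± 0.16 (adjusted p = 0.0421). The 2 clade B calls held whichever of the 12 arrays was left out, whereas that of Serpina1 was lost in 10 of them (0.44 to 0.65), and without exposed nose replicate 3 the count was 5. Serpinb10, at −1.58 ± 0.67 (limma adjusted p = 0.133), and Serpinb11, at −0.37 ± 0.28 (adjusted p = 0.433), did not pass. All 7 clade B serpins tested had a negative difference of effects, with a median of −1.12, against −0.09 over all probe sets. At 28 days opposite movement of Serpinb10 and Serpinb11 in the 2 tissues chose the family, so the values there are a description and nothing is read from the count. The 5 of 17 serpins past the threshold, all with a negative difference, against 5.1% of all probe sets called and 3.11% called lower, were Serpinb10 (−2.75 ± 0.67), Serpinb11 (−2.11 ± 0.28), Serpini1 (−1.77 ± 0.23), Serpinb9 (−1.47 ± 0.17) and Serpinb6a (−0.995 ± 0.21).

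The proteases, cofactors and other partners of the serpins were read from a list of 77 genes with a probe set. In nose at 7 days 1 of 23 extracellular proteases rose and 4 fell, where 8.43% of all probe sets rose and 7.84% fell. C1s and C1r, the complement proteases that Serping1 inhibits, had differences of −0.45 ± 0.08 (limma adjusted p = 0.00605) and −0.47 ± 0.08 (adjusted p = 0.00767), beside −0.42 for Serping1 itself. Plau, Klkb1 and, at 28 days, Gzmm were named after their values were seen. Plau, urokinase plasminogen activator and the target of Serpinb2, fell by 1.47 on the log2 scale, with 7.85, 8.98 and 9.01 in order of size on exposed arrays, against 9.93, 9.93 and 10.39 on control arrays (limma, standard error 0.36, adjusted p = 0.0212). The plasma kallikrein gene Klkb1, another target of Serping1, rose by 0.53 ± 0.15 (adjusted p = 0.0361).

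The counts of the remaining lists in nose at 7 days stand against the same 16.3% of all probe sets called. Of 11 lysosomal and other intracellular proteases 3 fell, led by Casp1 at −0.96 ± 0.15 (limma adjusted p = 0.00446) and Ctss at −0.59 ± 0.11 (adjusted p = 0.00802). Of 10 cofactors and receptors 1 rose and 1 fell, and Lrp2, a receptor that takes up protease complexes, rose by 1.63 ± 0.39 (adjusted p = 0.0197), while Thbd, the thrombin receptor of endothelium, had −0.42 ± 0.10 (adjusted p = 0.0195). Of 18 genes of collagen and its processing, the clients and partners of Serpinh1, 2 fell, while Serpinh1 had −0.05. Neither of the 2 mast cell and cytotoxic protease genes tested in nose passed. At 28 days 0 of 64 genes tested in these lists passed in nose (limma, 12 at an unadjusted p under 0.05).

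In blood at 7 days the granzymes were the only genes of these lists to pass, 3 of 66 tested, against 0.475% of all probe sets called. At 28 days 7 of 66 passed, against 5.27% of all probe sets called, 3.95% higher and 1.31% lower. They were 4 granzymes, 2 of 18 collagen processing genes (P4ha1 and Plod2, at 0.89 ± 0.15 and 1.09 ± 0.19) and Lrp1. Lrp1, a clearance receptor for complexes of serpins with proteases, had a lower level in exposed blood (−1.37 ± 0.29). Of 25 extracellular proteases tested in blood 0 passed on either day (limma, 0 at an unadjusted p under 0.05).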

How the data were processed

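Biotin-labelled RNA of nasal tissue and of white blood cells was hybridised to Affymetrix arrays, per the labels. The authors deposited 1 normalised intensity per probe set and array, on a linear scale. Partek was used, per the submitters' processing notes, while its version and how it corrected, summarised and normalised the signals are not given in the labels or file headers. With 3 arrays per group, their number limits the precision. Groups came from the sample titles. The table held 29214 probe sets, of which 15310 had 1 symbol and 323 had several in the annotation of the array platform. Gene identifiers of all 36 serpins were found in RefSeq.

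The log2 of these values was analysed without further normalisation. The 21910 probe sets of a tissue with a mean at or above percentile 25 were tested with limma 3.58.1 in R 4.3.3, with 4 group means over the 12 arrays of a tissue, or 8 over all 24 arrays for the 20096 probe sets kept in both tissues. Tests were two-sided with Benjamini-Hochberg adjustment over all probe sets kept and a threshold of an adjusted p under 0.05. The fits were tested on simulated data. Figures were drawn with matplotlib 3.10.9.

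The members and lists were chosen with earlier results of these data known. Serpinb11 and Serpinb10 were named throughout, with every serpin past the threshold, the 3 of smallest p where fewer than 3 passed, the 4 largest differences in each direction between control tissues that passed on both days, and at most 6 genes a comparison of the target lists. Other serpins given with values were picked after their values were seen. The labels state no pairing. Residuals of same-numbered exposed and control arrays had r of 0.154 to 0.247 in nose at 28 days, each over 0.1, so the numbers may pair those arrays, and −0.348 to 0.070 in the other comparisons. The differences, standard errors and calls given for nose at 28 days nevertheless come from the fit of group means, which ignores the numbers. The replicate block, which uses them, was run only as an alternative. Between same-numbered nose and blood arrays of a day and exposure, r was −0.202 to 0.171. The labels do not say whether both tissues came from the same rats, and the fits that compare tissues treat their arrays as independent. The alternatives were no filter or one at the tissue's median, quantile normalisation, median centring, an intensity trend with a robust prior, a replicate block, only the arrays compared, the mean of a gene's probe sets, and each array left out in turn.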

Additional observations from a re-analysis of the deposited data

Results flagged for a closer look

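For 3 serpins the effect of exposure at 7 days differed between the tissues by the test of that difference (limma, nose minus blood). The values were −1.19 for Serpinb9, −0.79 for Serpinb6b and 0.52 for Serpina1. At 28 days the same difference belongs to the contrast that chose the family, so its values are given as a description, with −2.75 for Serpinb10, −2.11 for Serpinb11, −1.77 for Serpini1, −1.47 for Serpinb9 and −0.995 for Serpinb6a. Serpinb2 stood apart at 28 days with a difference of −2.996, since all exposed arrays lay under the controls in nose and over them in blood, but it was under the filter in nose and this difference was not tested.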

How the results depend on the processing

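The number of serpins called in nose at 7 days was 7, and 3 with a replicate block, while the other settings gave 5 to 7 and leaving out an array 0 to 7. In nose at 28 days it was 0, and 0 with the replicate block, with 0 to 4 when an array was left out, and for the nasal effect at 28 against 7 days 0, with 0 to 3. In blood at 7 days it was 1, but 0 with no filter, 0 with median centring and 0 with the replicate block, and 0 to 1 when an array was left out. In blood at 28 days it was 6, but 0 in a fit of only the arrays compared, and 5 to 7 when an array was left out. For the nose minus blood effect at 7 days it was 3, and 2 to 5 when an array was left out, and at 28 days 5, with 4 to 5. For control nose against control blood it was 15 on both days, but 27 and 29 with no filter and 7 and 7 with the filter at the tissue's median, and 13 to 15 when an array was left out, and the number of serpins tested changes with the filter. The difference of Serpinb10 in blood at 7 days, 0.03, turned to −0.00446 with quantile normalisation and ran from −0.0471 to 0.0791 when an array was left out. Its nasal effect at 28 against 7 days of −0.35 ran from −1.08 to 0.208 when an array was left out, and was above 0 without exposed replicate 3 at 7 days, control replicate 1 at 28 days or exposed replicate 2 at 28 days. Where no cause is given, the cause was not tested. Over all alternatives of the named serpins 845 values were unchanged, 51 lost a call, 1 gained one, 1 moved and 6 changed sign. For exposure effects that used 28 day arrays, unchanged meant the same sign and a shift within the replicate SD, whatever the call. For the rest it meant the same direction and side of the threshold. The 51 thus leave out exposure calls lost at 28 days, such as the 6 in blood in the fit of only the arrays compared. The fit of 28 day nose with the replicate block changed no call. Low signal limits the 11 serpins under the filter in both tissues.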

Other observations

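The markers of endothelium, which the serpins of clotting and plasminogen meet in the vessel wall, fell in nose at 7 days in all 7 genes tested (limma), with a median difference of −0.71 and a summed intensity of 2717 to 3850 on exposed arrays, against 5258 to 6488 on control arrays. At 28 days 0 of the 7 passed (limma, 3 at an unadjusted p under 0.05), with a median of −0.24, and the summed intensity was 1863 to 2099 on exposed arrays, against 2288 to 2948 on control arrays. Of 8 markers of fibroblasts and matrix 4 fell in nose at 7 days, with a median difference of −0.30. Over all probe sets tested in nose at 7 days 7.84% were called lower, and the median difference was −0.05.

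In blood at 28 days the bone markers Bglap and Runx2 were among the genes called higher, by 1.05 ± 0.22 and 0.48 ± 0.11, as was Rhag, a gene of red cell precursors, by 1.03 ± 0.13 (limma), where 3.95% of all probe sets were called higher. The bone markers were 2 of 6 bone and cartilage markers tested, with a list median of 0.04. Rhag was 1 of 5 red cell markers tested, and the other 4 lay under 0, with a list median of −0.17.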
